A study of Drosophila melanogaster with 36 samples.

Results

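The genes described here are the 5 individually named esterase genes of a Drosophila melanogaster detoxification array that lie outside its alpha-esterase cluster, its acetylcholinesterase and its neuroligins: Est-P, Est-Q, Jhedup, clt and gas. They were chosen by symbol in the table that pairs the array's probes with genes, and they made up 5 of the 159 named genes and 20 of the 656 spots with 1 gene symbol, 4 spots per gene. The array carried probes for cytochrome P450s, glutathione S-transferases, esterases and a few control genes. The animals, all of strain y cn bw sp, met 1 of 8 compounds for 4 h. For each of 9 exposures, 8 samples of 50 exposed animals and 8 samples of 50 control animals were extracted and each arm was pooled, so that 1 pool stood for 400 animals. The RNA was that of whole animals, so fewer cells of a type and less RNA per cell cannot be told apart.

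In larvae, which were 3rd instar, feeding and 4.5 days post laying when frozen, the exposed arm met the compound in food and the control arm the same food without it. The 5 insecticides given to larvae were diazinon at 0.013% (an organophosphate that inhibits acetylcholinesterase), dicyclanil at 0.067% and lufenuron at 20 ppm (insect growth regulators), spinosad at 6e-05% and nitenpyram at 6 ppm (both acting on nicotinic acetylcholine receptors). The other larval exposures were caffeine at 1.5 mg/ml and phenobarbital at 10 mM, compounds long used to raise detoxification genes in insects and called inducers below. Adult males, held for 4 days after emergence, were put in vials coated with DDT (10 µg per vial, a sodium channel insecticide) or with phenobarbital (10 µl at 1 M in each vial), carried in 150 µl of acetone that was left to dry. The label of DDT array 1 gave 5 days for its exposed flies. Controls went through the same conditions without the compound. Every exposure had a single pair of pools, so no value below rests on separately pooled cultures.

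Esterases of the carboxylesterase family cleave ester bonds, in insecticides and also in hormones, pheromones and odorants. In flies some members break down juvenile hormone, the hormone that holds an insect in its larval form, and others degrade food and pheromone esters. Some members have lost an essential catalytic residue or have roles outside detoxification, so the family name alone does not say what a gene's product acts on.

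Est-P (CG17148, chromosome arm 3L) lies in the RefSeq annotation of the Release 6 assembly between Est-6, the seminal esterase gene of the beta-esterase cluster, and CG11529. It overlaps thoc6, and its older names include psiEst-6, given because it has been regarded as a possible pseudogene. Est-Q (CG7529, 3L) lies between Hr78 and M6 and overlaps Glg1. Jhedup (CG8424, 2R) stands beside Jhe, the juvenile hormone esterase gene of which it is a duplicate, and its protein has been described as an odorant-degrading esterase. The gene clt (CG9858, 2R), cricklet, also carried the name Est-R and lies between CG18870 and PTP-ER. The gene gas (CG6018, 2R), once named alphaE1-O, lies between CG4610 and CG11362 and overlaps px. None of these neighbours had a named spot on the array, so no direct comparison with Est-6 or Jhe was made. Probe sequences were not used here, and whether a spot also took up RNA of an overlapping or related gene was not tested.

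Each pool pair was hybridised to 4 two-colour arrays, with the exposed pool on Cy5 on arrays 1 and 3 and on Cy3 on arrays 2 and 4. The fourth arrays of the adult exposures, labelled DDT and phenobarbital, were identical in 1936 of 1936 spots and neither was used, which left 34 of the 36 arrays, 4 per larval exposure and 3 per adult exposure. Between 1504 and 1732 of the 1936 spots had a usable ratio on these arrays. The deposited ratios were not centred: the median log2 ratio of the named genes lay between -1.95 and 0.63 depending on the array, so each array was set to a median of 0 over its named genes, and all values below are log2 ratios of exposed over control relative to that median unless another centring is named. The direction of the deposited ratio is not stated in the labels and was taken as Cy5 over Cy3. With that direction Cyp6a2 and Cyp6a8, P450 genes known to be raised by phenobarbital, were at 2.15 and 1.94 in phenobarbital larvae, and at 1.98 and 4.12 in phenobarbital adult males. Were the direction turned, each higher and lower below would swap. A gene was called where limma's Benjamini-Hochberg adjusted p was under 0.05 over the 159 genes and the ratio was at least 1.5-fold either way. The arrays of a pool pair are technical repeats, so these p-values measure the spread between arrays and not between cultures. The error was estimated once per gene over all 34 arrays, so an SE does not show the spread of the arrays of its own exposure. For gas the SE was 0.20 under both diazinon and nitenpyram, where the SD of its 4 arrays was 0.09 and 0.70. The small number of arrays per exposure also limits the precision.

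The 5 genes were measured with very unequal precision, and gas was the best measured. Its 4 spots gave a ratio on all 34 arrays, with 0% of values missing and a median SD between its spots of 0.14. Of the 159 named genes, 120 had a larger SD between spots than gas. The value of gas changed little with the spot chosen: in phenobarbital larvae its 4 spots read -0.68, -0.67, -0.73 and -0.75 on array 1.

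Est-P was at the other end of the scale. It lacked 19.1% of its values, against 5.00% over all named genes, and its median SD between spots was 0.68, with a larger SD in 24 of the 159 genes. The fitted SD of array error was 1.00 for Est-P, against a median of 0.45 over all named genes, and only 6 genes had a larger one. The same SD was 0.40 for gas.

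Jhedup, Est-Q and clt lay between them. Jhedup lacked 10.3% of its values, Est-Q 18.4% and clt 4.41%, and their median SDs between spots were 0.67, 0.52 and 0.58. Their array error SDs of 0.46, 0.57 and 0.52 lay against 0.45 for the median gene.

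The 4 spots of each gene stood in 2 adjacent pairs, which were compared after the values had been seen. In Jhedup, 68.5% of the deposited values of the first pair equalled, to 3 decimals, the log2 of a ratio of whole numbers up to 8, against 5.88% in the second pair. The same shares were 61.2% and 19.7% in Est-P, 37.2% and 2.94% in Est-Q, 20.9% and 11.1% in clt, and 1.47% and 2.94% in gas, against 11.7% over both pairs of all named genes. Such values can occur where 2 very small whole numbers were divided, and no signal intensities were used here to test that.

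The 2 pairs of one gene also disagreed with each other. The median absolute difference between the pairs of a gene was 1.19 log2 units in Est-Q, 0.92 in Jhedup, 0.89 in clt and 0.68 in Est-P, against 0.11 in gas and 0.46 over all named genes. Within the second pair of Est-Q the spots differed by a median of 0.11, and within its first pair by 0.59. Fitted separately, the pairs had opposite signs in 5 of 9 exposures for Est-Q, 4 for Est-P, 4 for clt, 1 for Jhedup and 0 for gas, against 33.8% of all values of named genes in the 9 exposures. Where the sign of a value described below turned between the pairs, both are given, other than for most values under the insecticides.

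**Figure D1:**
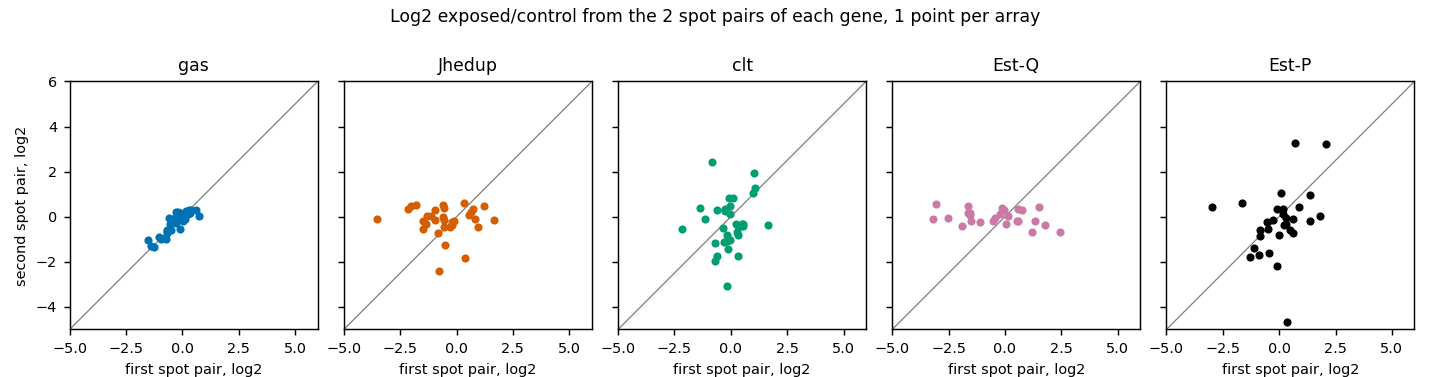
Each panel plots, for 1 gene, the centred log2 ratio of exposed over control from its second spot pair (vertical axis) against that from its first spot pair (horizontal axis), 1 point per array with values in both pairs; the grey line marks equal values. The points of gas lie along the line, with a median difference of 0.11, while those of Est-Q spread along the horizontal axis, with a median difference of 1.19 between pairs.

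Phenobarbital in larvae was the 1 exposure of the 9 in which genes of this group were called. Measured against the median named gene, Jhedup, gas and clt were lower in phenobarbital larvae, by 2.07-fold, 1.96-fold and 1.56-fold, while Est-P and Est-Q were not called. These 3 of 5 genes stand against 43.4% of all named genes called in that exposure and 20.8% called lower. The fitted values of all 5 genes were below 0, with a median of -0.64, against a median of -0.15 over the 159 genes.

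In phenobarbital larvae gas read -0.71, -1.30, -0.54 and -1.35 on arrays 1 to 4. It was below 0 on 4 of 4 arrays, and lower where the exposed pool carried Cy3 (arrays 2 and 4) than where it carried Cy5. The fitted value was -0.97 ± 0.20 (SE, n = 4 arrays, limma adjusted p = 0.000165), and 10 of the 159 genes were lower. Both spot pairs gave the call, at -0.96 for the first and -0.94 for the second.

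Jhedup, the neighbour of the juvenile hormone esterase gene, read -1.85, -0.37, -0.72 and -1.25 on the same arrays. It too was below 0 on 4 of 4 arrays, with array 1 the lowest. Its fitted value was -1.05 ± 0.23 (limma adjusted p = 0.000298), with 7 genes lower. The first spot pair gave -1.06 ± 0.53 and no call (limma adjusted p = 0.122), and the second -1.15 ± 0.21 with the call. The size from the first pair rested largely on 1 spot, which read -3.53 and was its only value on array 4. Its other values were -0.78 on array 1, -0.79 and 0.21 on array 2, and 0.39 and 0.39 on array 3. Single spots of Jhedup on array 4 ranged from -3.53 to 0.04.

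The values of clt were -1.17, -0.05, -1.36 and 0.03 on arrays 1 to 4 of phenobarbital larvae. The low values were those of the arrays with the exposed pool on Cy5, and those with it on Cy3 were near 0. The fitted value, which takes a dye term common to all exposures into account (-0.44 ± 0.09 for clt), was -0.64 ± 0.26 (limma adjusted p = 0.0436). The call of clt rested on all 4 arrays together: without any 1 of them the value stayed between -0.54 and -0.72 and the call was lost, as it was from the second spot pair alone (-0.54 ± 0.47).

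Est-Q and Est-P were not called in phenobarbital larvae. Est-Q read 0.13, 0.22, -1.65 and 0.09, so 3 arrays were just above 0 and array 3 stood far below, and the fitted value was -0.30 ± 0.28 (limma adjusted p = 0.392). It was -1.01 ± 0.85 from the first spot pair and 0.16 ± 0.18 from the second. On array 3 the first pair of Est-Q spots read -3.47 and -2.93, and the second pair 0.08 and -0.28. Est-P read -1.49, 0.20, -0.84 and 0.56, on either side of 0 by dye, with a fitted value of -0.39 ± 0.50 (limma adjusted p = 0.538).

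These directions depend on what the arrays were centred on. The 4 control genes with named spots (Gapdh1 of glycolysis and the ribosomal protein genes RpL10Aa, RpS20 and RpS21) were themselves called lower in phenobarbital larvae, 4 of 4, with a median of -0.67. Of all named genes, 36 were called higher and 33 lower in phenobarbital larvae, but 67 and 3 when the arrays were centred on those control genes, 54 and 2 with the values as deposited, and 41 and 13 when centred on all spots. Centring on the control genes moved the median of all named genes to 0.56, against -0.15.

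On that centring gas was at -0.26 ± 0.11, Jhedup at -0.33 ± 0.31 and clt at 0.08 ± 0.33, and none of the 5 genes was called. As deposited they were at -0.19, -0.27 and 0.14, again with 0 calls by limma. With arrays centred on all spots, gas (-0.74) and Jhedup (-0.82) kept their calls and clt (-0.41) lost its own. Those 4 centrings each subtract at most 1 constant per array. In phenobarbital larvae they left unchanged the distance of each of the 5 genes from the median of the named genes. That distance was -0.90 for Jhedup, -0.82 for gas, -0.49 for clt, -0.24 for Est-P and -0.15 for Est-Q. With arrays also scaled to the same spread it was -0.69, -0.64, -0.35, -0.18 and -0.06 in the same order. The measured result is thus that Jhedup and gas lay below the typical named gene of the array in phenobarbital larvae. Whether their RNA fell or the others' rose was not tested, and the part of the control genes' shift in it was not tested either.

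**Figure D2:**
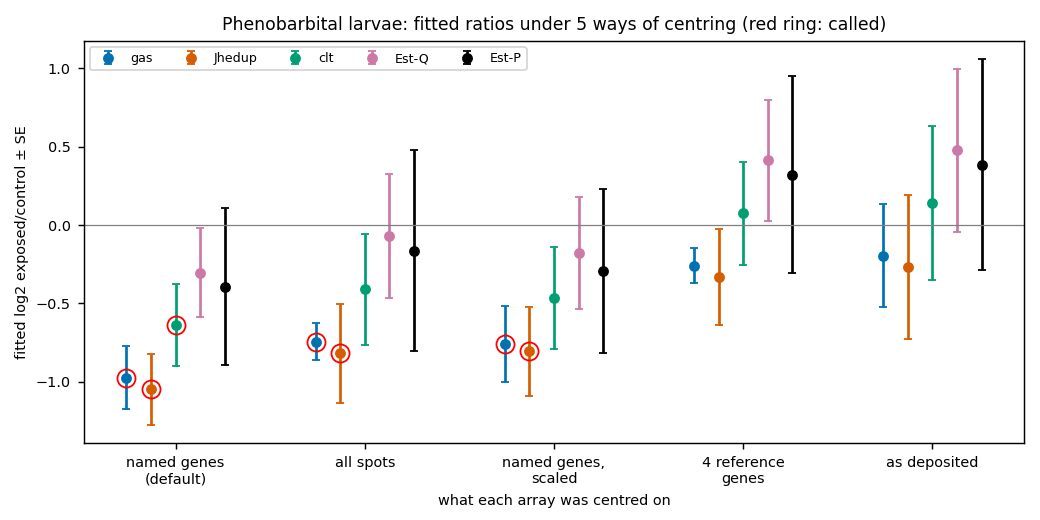
Fitted log2 ratio of exposed over control ± SE of each gene in phenobarbital larvae (vertical axis) under 5 ways of bringing the arrays to a common level (horizontal axis), 4 arrays per value; a red ring marks a gene called. Jhedup is at -1.05 and gas at -0.97 with centring on the named genes and at -0.33 and -0.26 with centring on the 4 control genes, where no gene is ringed.

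The phenobarbital response of adult males was measured on 3 arrays and gave no call among the 5 genes by limma, against 18.2% of all named genes, with 41 of 159 genes at an unadjusted p under 0.05. All 5 genes were below 0 on the 3 arrays used, with no such count over all named genes given here. Their median was -0.60, against -0.07 over all genes. The unused array 4, which carried both adult labels, read 2.32 in Est-P, 1.08 in Est-Q, 1.47 in clt, 0.11 in Jhedup and -1.35 in gas. Est-P, Est-Q and Jhedup had unadjusted limma p-values under 0.05 (0.038, 0.0188 and 0.0338), and clt and gas had 0.0575 and 0.0692. Only 2 of 159 genes were called lower in this exposure, or 1.26%.

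Est-P read -1.03, -2.16 and -1.01 on arrays 1, 2 and 3 of phenobarbital adult males. These values came from 2, 2 and 1 spots, and on array 2 those spots read 0.34 and -4.66. The fitted value was -1.27 ± 0.58 (limma adjusted p = 0.155). It was -0.03 from the first spot pair and -2.45 from the second, where it was called.

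Est-Q read -0.86, -1.29 and -0.27 on these arrays, and its fitted value was -0.82 ± 0.33 (limma adjusted p = 0.0903). The first spot pair gave -2.0 ± 1.04 and the second -0.30 ± 0.21. Jhedup read -0.52, -0.65 and -0.84, the narrowest range of the 5 genes, with a fitted value of -0.59 ± 0.26 (limma adjusted p = 0.145).

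For clt the adult arrays read -1.35, -0.04 and -0.86, again lower with the exposed pool on Cy5, and the fitted value was -0.60 ± 0.30 (limma adjusted p = 0.213). For gas they read -0.34, -0.18 and -0.63, a fitted value of -0.44 ± 0.23 (limma adjusted p = 0.238). As deposited, Jhedup, clt and gas were above 0 in these flies, at 0.07, 0.06 and 0.22, so their direction also follows the centring. Since all arrays share 1 estimate of error per gene, the absence of calls here rested partly on arrays of other exposures: without array 3 of nitenpyram larvae both Est-P (-1.33) and Est-Q (-0.84) were called in phenobarbital adult males, and without array 3 of phenobarbital larvae Est-Q was (-0.84). With a dye term for each exposure Est-P (-1.59) and Est-Q (-0.93) were called as well.

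Phenobarbital was the compound given at both stages, by food in larvae and by contact in adult males, so the doses cannot be matched. The difference between the stages was called in none of the 5 genes by limma, against 17.6% of all named genes and 42 genes at an unadjusted p under 0.05. The difference of larvae minus adult males was -0.53 ± 0.31 for gas (limma adjusted p = 0.287) and -0.46 ± 0.35 for Jhedup (0.411). It was 0.88 ± 0.77 for Est-P (0.488), 0.52 ± 0.44 for Est-Q (0.471) and -0.04 ± 0.40 for clt (0.991). The sign of Est-P turned between its first and second spot pairs, at -0.22 ± 0.81 and 2.08 ± 1.07, as did that of clt, at -0.51 ± 0.40 and 0.70 ± 0.72. With a dye term for each exposure the difference was called in gas (-0.64) and Est-P (1.20), and with arrays centred on all spots in gas (-0.65). The arrays of the stages overlapped in Jhedup, clt, Est-Q and Est-P, and in gas 1 larval array (-0.54) lay among the adult ones. With SEs of 0.31 to 0.77 these values do not show that the stages responded alike, and stage, route and dose cannot be told apart.

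DDT in adult males gave no call among the 5 genes, against 6.29% of all named genes, with 29 of 159 genes at an unadjusted p under 0.05 by limma. Jhedup was below 0 on 3 of 3 arrays, at -0.29, -0.24 and -0.89, with a fitted value of -0.39 ± 0.26 (limma adjusted p = 0.455). Est-Q was above 0 on 3 of 3 arrays, at 0.58, 0.36 and 0.13, with a fitted value of 0.35 ± 0.33 (limma adjusted p = 0.567). The sign of Est-Q came from its first spot pair, which gave 1.83 ± 1.04, while the second gave -0.08 ± 0.21 and the median of the 4 spots -0.15. Neither gene passed the test under DDT.

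Est-P, clt and gas split by dye under DDT. Est-P read -1.64 and -1.31 with the exposed pool on Cy5 and 1.99 with it on Cy3, and clt read -0.76 and -0.35 against 1.49. Their first and second spot pairs differed in sign, at -0.68 and 0.28 for Est-P and at 0.33 and -0.09 for clt. The gene gas went the other way, at -0.28 and 0.39 on Cy5 and -1.28 on Cy3. Its fitted value was -0.44 ± 0.23 (limma adjusted p = 0.315), and it was called at -0.64 with arrays centred on all spots, at -0.66 on the control genes and at -0.61 with a dye term for each exposure. Only 1 DDT array with the exposed pool on Cy3 was used.

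Caffeine in larvae gave gas as its clearest value. The arrays read -0.18, -0.96, -0.24 and -0.86, all below 0, with the lower pair again those with the exposed pool on Cy3. The fitted value was -0.56 ± 0.20, or 1.47-fold lower, with a limma adjusted p of 0.0483, which passed the p threshold and missed the size threshold. No gene of the 5 was therefore called, against 17.6% of all named genes, with 46 of 159 genes at an unadjusted p under 0.05.

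The other 4 genes did not pass the test under caffeine (limma adjusted p between 0.493 and 0.752). Fitted values were -0.30 ± 0.26 for clt, -0.24 ± 0.23 for Jhedup, -0.33 ± 0.50 for Est-P and 0.22 ± 0.28 for Est-Q. The sign of Jhedup turned between its spot pairs, at -1.26 ± 0.62 from the first and 0.32 ± 0.21 from the second. Est-P was below 0 on 4 of 4 arrays, at -0.15, -0.05, -0.71 and -0.41, but its second spot pair was above 0 on arrays 1 (0.41 and 0.80) and 3 (0.39 and 0.45). Gapdh1, 1 of the 4 control genes, was called lower, and the median of the 4 was -0.42; centred on them, gas was at -0.10 ± 0.11. Among all genes 20 were called higher and 8 lower under caffeine, against 46 and 1 with that centring, 23 and 0 as deposited and 27 and 2 on all spots.

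**Figure D3:**
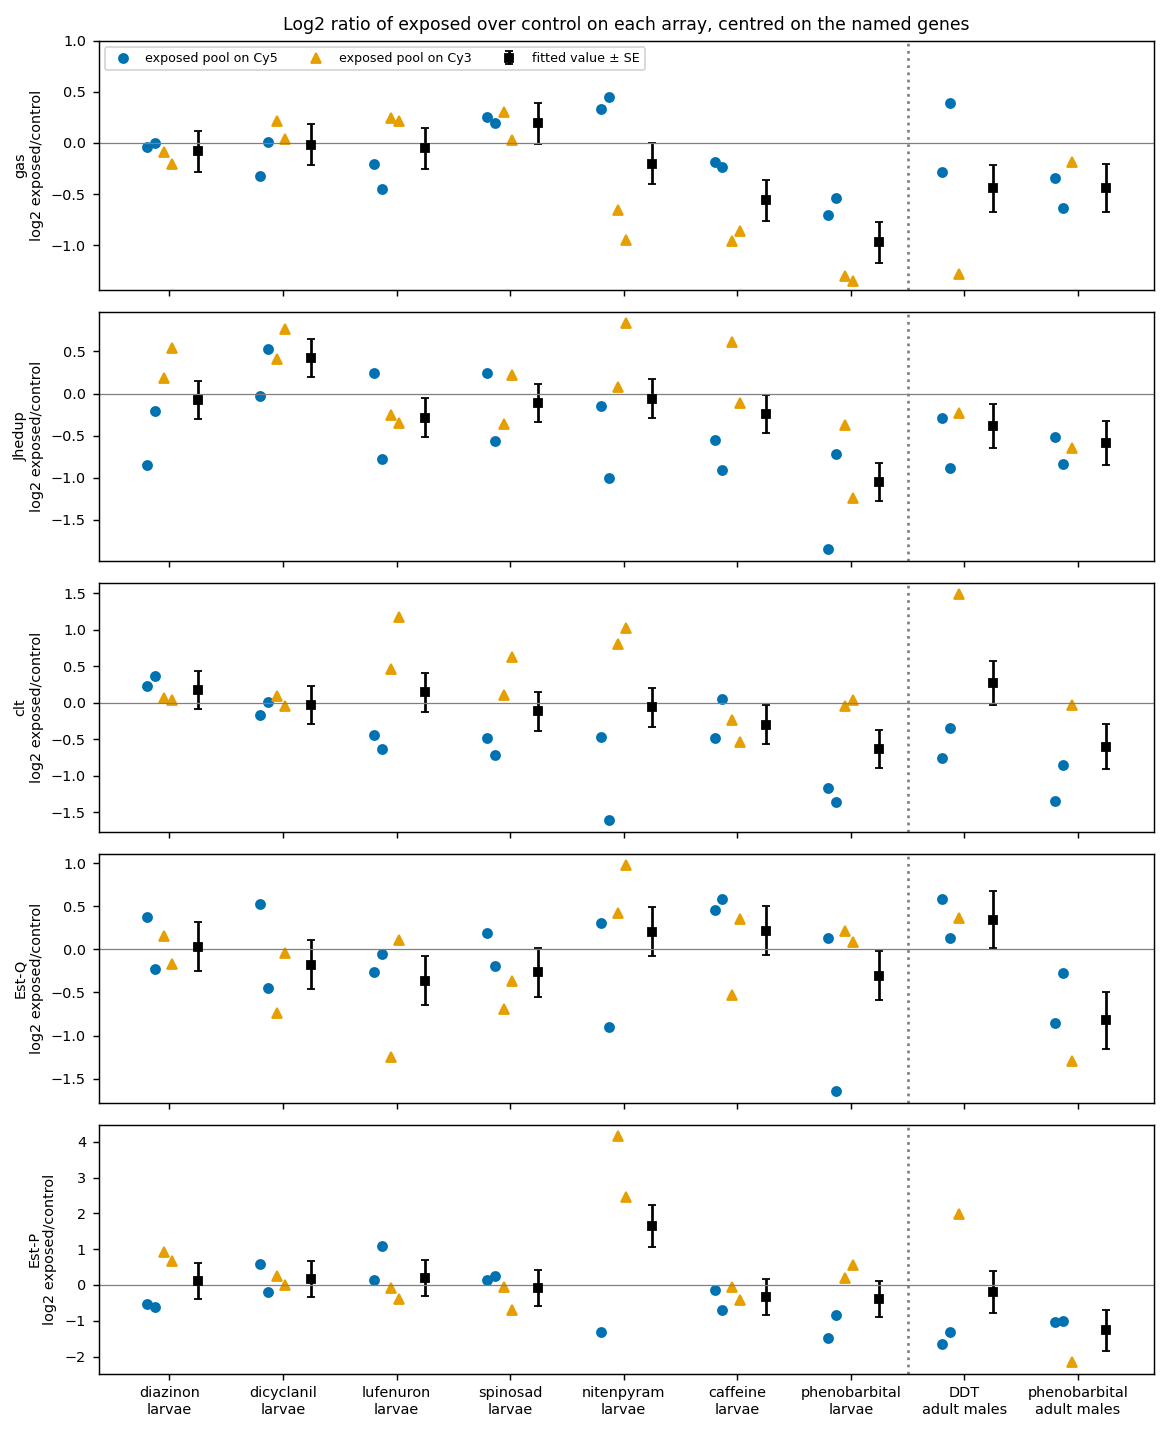
Centred log2 ratio of exposed over control on each of the 34 arrays (vertical axes, 1 panel per gene, different scales) in the 9 exposures (horizontal axis), with the exposed pool on Cy5 (circles) or Cy3 (triangles); squares with bars are fitted values ± SE. All 4 arrays of gas and of Jhedup lie below 0 in phenobarbital larvae, and in nitenpyram larvae and DDT males the values of Est-P and clt lie apart by dye.

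The 5 insecticides gave no call in any of the 5 genes. The background was as low: limma called 0% of all named genes under diazinon, lufenuron and spinosad, 1.26% under dicyclanil and 0.629% under nitenpyram, with 2, 1, 4, 8 and 9 of 159 genes at an unadjusted p under 0.05. In the deposited direction, arrays of opposite dye had a mean r across genes of 0.51 under diazinon, 0.54 under lufenuron and 0.53 under nitenpyram. It was 0.14 under dicyclanil and 0.15 under spinosad. Values alike in that direction take opposite signs once turned, so they partly cancel in the fit. Whether this lowered the number of calls was not tested. Of the 25 fitted values, 23 lay between -0.36 and 0.20, and the exceptions were Est-P under nitenpyram and Jhedup under dicyclanil.

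Under nitenpyram Est-P had no value on array 1 and read 4.16, -1.30 and 2.45 on arrays 2, 3 and 4. The value of 4.16 came from 1 spot, and the arrays fell on both sides of 0 according to the dye of the exposed pool. The fitted value of 1.64 ± 0.58 was the highest of the 159 genes in this exposure, and it was not called (limma adjusted p = 0.599). With at least 2 spots required, which removed the value of 4.16, it was 0.56 ± 0.63. Without array 3 it was 3.09 and called, from the 2 arrays of one dye orientation. The first spot pair gave 0.73 ± 0.66 and the second 1.66 ± 0.81.

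Jhedup under dicyclanil read -0.03, 0.41, 0.53 and 0.77, with 3 of 4 arrays above 0. The fitted value was 0.42 ± 0.23 (limma adjusted p = 0.930). It was the highest value of Jhedup among the larval exposures, and it was called, at 0.91, only where the arrays had also been scaled to the same spread.

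The remaining insecticide values of the well-measured gas were small. Under diazinon its arrays read -0.04, -0.09, 0.00 and -0.20, and under spinosad 0.25, 0.30, 0.19 and 0.03. They gave -0.08 ± 0.20 and 0.19 ± 0.20, and dicyclanil and lufenuron gave -0.02 and -0.05. Nitenpyram gave -0.20 ± 0.20 from 0.34, -0.65, 0.45 and -0.95, which split by dye in the opposite sense to Est-P and clt on the same arrays.

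Split by dye, the nitenpyram arrays of clt read -0.47 and -1.62 with the exposed pool on Cy5 and 0.80 and 1.02 with it on Cy3, for a fitted value of -0.07 ± 0.26. The gene clt had the same pattern under lufenuron, at -0.44 and -0.64 against 0.46 and 1.17. Under diazinon it was above 0 on 4 of 4 arrays, between 0.03 and 0.37. Under spinosad clt was at 0.44 ± 0.26 from the first spot pair and -0.69 ± 0.47 from the second, for -0.12 ± 0.26 over all spots. The dye term over all exposures was -0.44 ± 0.09 for clt, -0.39 ± 0.18 for Est-P, -0.24 ± 0.08 for Jhedup, 0.16 ± 0.07 for gas and 0.04 ± 0.10 for Est-Q. For clt it was larger in size than the fitted value of 7 of the 9 exposures.

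**Figure D4:**
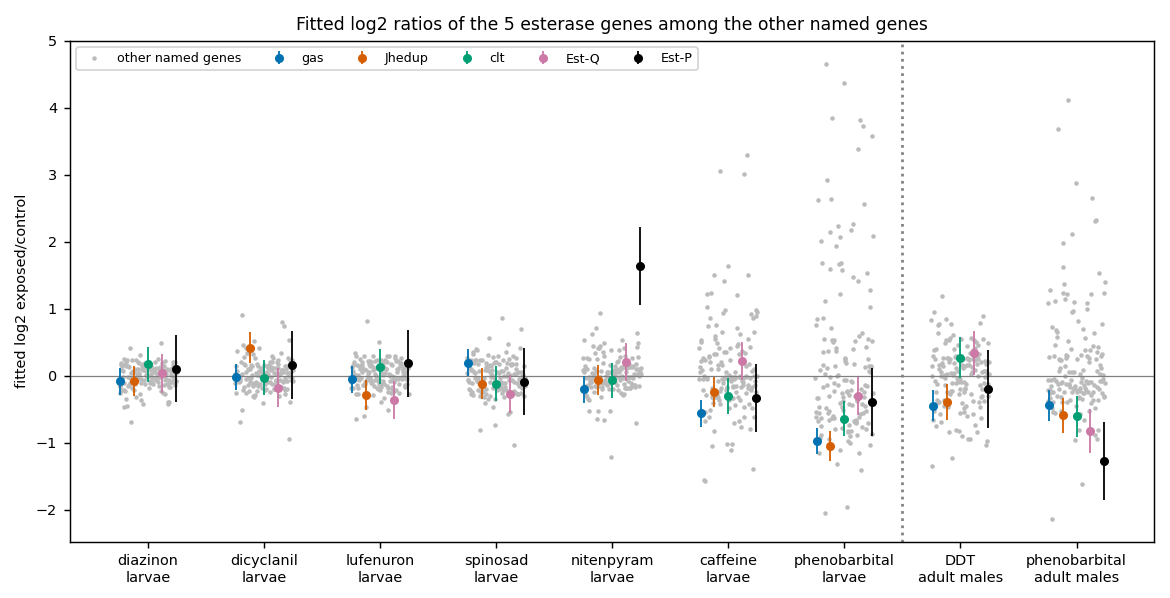
Fitted log2 ratio of exposed over control (vertical axis) of the 5 esterase genes (coloured points ± SE) and of the other named genes (grey points) in each of the 9 exposures (horizontal axis). In phenobarbital larvae Jhedup at -1.05 and gas at -0.97 lie near the lower edge of the named genes, and Est-P at 1.64 lies above all others in nitenpyram larvae.

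The pool pairs were then taken as the unit, with 1 value per exposure that weighs both dye orientations equally. Over the 7 larval pool pairs the mean was -0.24 ± 0.40 for gas, -0.20 ± 0.44 for Jhedup, -0.12 ± 0.28 for clt, -0.09 ± 0.24 for Est-Q and 0.09 ± 0.46 for Est-P (SD, n = 7). From the first and second spot pairs the mean was -0.52 and 0.06 for Est-Q, and 0.13 and -0.04 for Est-P. None differed from 0 by limma at an adjusted p under 0.05, nor did any of the 159 genes (0%), of which 15 had an unadjusted p under 0.05. The smallest adjusted p among the 5 was that of gas, 0.475. Phenobarbital gave the lowest larval value in gas, Jhedup, clt and Est-P, and lufenuron in Est-Q (-0.36, with -0.61 and 0.06 from its spot pairs).

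Larvae and adult males were compared over 7 and 2 pool pairs. The adult values under DDT and phenobarbital were -0.61 and -0.34 for gas, -0.41 and -0.67 for Jhedup, 0.47 and -0.57 for clt, 0.36 and -0.93 for Est-Q, and 0.26 and -1.59 for Est-P. Those of gas and Jhedup lay inside the larval range, while the adult phenobarbital values of Est-Q and Est-P lay below every larval pool pair of the same gene, as in 14.6% of the named genes with a value in all pool pairs. The adult DDT values of clt and Est-Q lay above every larval one, as in 15.8% of those genes. These values of Est-P, Est-Q and clt outside the larval range differed between their spot pairs, as given above for each adult exposure. The Est-P value under phenobarbital took its array 2 from spots that read 0.34 and -4.66.

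The difference of larvae minus adult males was 0.76 ± 0.47 for Est-P (limma adjusted p = 0.937), 0.34 ± 0.31 for Jhedup, 0.23 ± 0.29 for gas, 0.19 ± 0.31 for Est-Q and -0.07 ± 0.29 for clt (each with an adjusted p of 0.951). From the first and second spot pairs it was -0.43 and 0.33 for Est-Q, and -0.15 and 0.28 for clt. None was called, nor was any of the 159 genes (0%), with 12 genes at an unadjusted p under 0.05. The adult pairs were only 2 and held different compounds, so stage and compound cannot be told apart beyond phenobarbital.

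**Figure D5:**
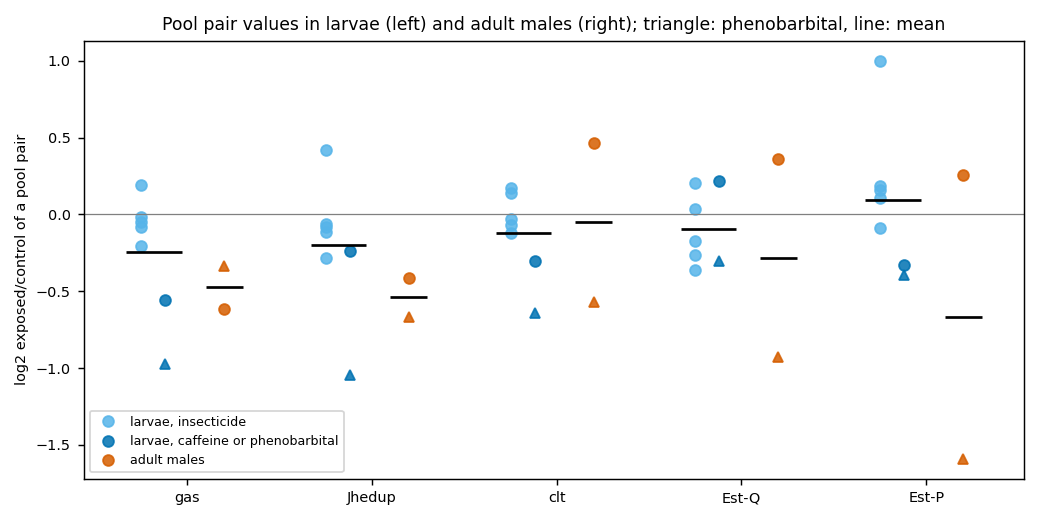
Log2 ratio of exposed over control of each pool pair (vertical axis) for the 5 genes (horizontal axis), with larvae on the left and adult males on the right of each gene; triangles are phenobarbital and lines are means over 7 larval and 2 adult pool pairs. For gas, both inducer values of larvae (-0.56 and -0.97) lie below the 5 insecticide values (-0.20 to 0.19).

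Among the larval exposures the insecticides and the inducers differed in gas. Its insecticide pool pairs lay between -0.20 and 0.19, with a mean of -0.03, and its inducer pool pairs were at -0.56 under caffeine and -0.97 under phenobarbital, with a mean of -0.77. In gas, and also in clt and Est-P, every insecticide pool pair lay above both inducer pool pairs. The same order was found in 26.6% of the named genes with a value in all pool pairs. For gas, insecticides minus inducers was 0.73 ± 0.18 (n = 5 and 2 pool pairs, limma adjusted p = 0.0179). Of all named genes, 28.3% passed this test, 20 higher and 25 lower, and 12.6% passed as higher.

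For the other 4 genes the difference missed the threshold, at 0.49 ± 0.16 for clt (limma adjusted p = 0.0561), 0.62 ± 0.26 for Jhedup (0.103), 0.64 ± 0.27 for Est-P (0.114) and -0.07 ± 0.21 for Est-Q (0.811), which was 0.23 from its first spot pair and -0.11 from its second. Their median with gas was 0.62, against 0.07 over all genes. Without the phenobarbital pool pair gas was at 0.53 and not called (limma adjusted p = 0.0821), and without caffeine gas, Jhedup and clt were called, at 0.94, 1.02 and 0.66. Of the 4 control genes, Gapdh1 and RpL10Aa passed in the same direction, and the median of the 4 was 0.61. With arrays centred on the control genes the difference of gas was 0.09, and as deposited -0.06, where the median of all genes was -0.57 and -0.72. On those 2 centrings Est-Q was called instead, at -0.72 and -0.87. Of all genes 1 was then called higher and 75 lower on the control genes, 0 and 74 as deposited, and 6 and 33 on all spots.

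The other esterases on the array were counted for comparison. The alpha-esterase cluster includes genes tied to organophosphate resistance in other flies. Of its 8 measured genes, 2 were called lower in phenobarbital larvae (alpha-Est5 at -0.62 and alpha-Est6 at -1.32), and the median of the 8 was -0.44. Of acetylcholinesterase and 3 neuroligins, 1 of 4 was called lower there (Nlg1, an adhesion protein of synapses, at -0.73), with a median of -0.34. Both counts stand against 20.8% of all named genes called lower in that exposure, and neither is set apart from that share. None of the genes on either list was called higher in phenobarbital larvae. Under DDT, where 6.29% of all named genes were called, alpha-Est2 was called lower at -0.90 and Ace higher at 0.83. No other gene of either list was called in a single exposure. Of the beta-esterase cluster only Est-P was measured, and of the juvenile hormone esterase and epoxide hydrolase genes none was.

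Across the 9 pool pairs the 5 genes were compared with each other and with 157 genes. The pairs share arrays and their centring, and the phenobarbital pool pairs hold the extreme values of most genes, so the correlations are a description only. Among the 5 genes, Est-P and Est-Q had the highest Pearson r, 0.76, and Jhedup and gas had 0.75, while Est-Q and gas had the lowest, -0.15. The genes most like gas were GstE12 (r = 0.93), a glutathione S-transferase, and the control gene Gapdh1 (r = 0.90). Those most like Jhedup were GstZ1 (0.85) and Dcp-1, a caspase gene (0.83). For clt they were alpha-Est8 (0.88) and Gdap1 (0.87), for Est-P CG10175 (0.91) and phtm, a P450 gene of ecdysone synthesis (0.85), and for Est-Q Cyp4p2 (0.76) and Est-P (0.76).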

How the data were processed

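Per the labels, RNA of exposed and control pools was labelled with Cy3 or Cy5 and hybridised with dye swaps. The authors deposited 1 table of log2 ratios of both dyes, 1936 spots by 36 arrays. The submitters' processing notes name limma, with no version or role; background handling and normalization are not given in the sources used here. No signal intensities were used. Values at a ceiling of 16.61 (log2 of 100000), 2301 in all, were set to missing, like 8543 empty ones.

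Spots with 1 symbol were averaged per gene and array, the median over named genes was subtracted from each array, and ratios were turned to exposed over control. The deposited ratios were taken as not yet turned. Of 668 unnamed spots with values on all 34 arrays, 242 had values that did not overlap between the dyes of the exposed pool. A constant dye bias in ratios already turned could separate them too, so this count cannot decide it. Mean r across genes between arrays of opposite dye, in the deposited direction, was -0.90 in phenobarbital larvae, -0.62 in phenobarbital adult males, -0.36 in caffeine larvae and 0.12 to 0.54 elsewhere. Of the 159 genes, 158 matched RefSeq by gene identifier.

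The fit (limma 3.58.1, R 4.3.3) had a coefficient for each exposure and a common dye term, with Benjamini-Hochberg adjustment over 159 genes, and the phenobarbital contrast in the same fit. Tests over pool pairs used 1 value per exposure and an adjusted p under 0.05. Est-P in nitenpyram larvae had no value on array 1, which was left out of its fit. The fits were tested on simulated data with independent errors and no dye effect that differed between exposures, so such dye effects were not tested. Tables were made in Python 3.11.15 (pandas 2.3.3 and numpy 2.4.6), and figures with matplotlib 3.10.9. Alternatives varied the centring, scaling, spots, dye terms and arrays. All 5 genes are named, with the 2 genes most correlated with each, and other genes as members of listed groups. The genes, lists and tests were chosen with earlier results of these data known. Array numbers were shared across exposures without shared pools and were not used to pair the arrays in the main fit.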

Additional observations from a re-analysis of the deposited data

Results flagged for a closer look

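Of 39 groups of 4 to 7 values that were looked at, the arrays of each gene in each larval exposure and the 7 larval pool pairs of each gene, 2 held a value set apart from the rest, and chance alone sets apart about 1 in 20 groups. Est-Q read -1.65 on array 3 of phenobarbital larvae, far below its other 3 arrays, which lay between 0.09 and 0.22. On that array the first spot pair of Est-Q read -3.47 and -2.93 and the second 0.08 and -0.28.

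Est-P stood at 1.00 in the nitenpyram pool pair, far above its other 6 larval pool pairs, which lay between -0.39 and 0.19. Its 3 arrays there read 4.16, -1.30 and 2.45, the first from 1 spot.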

How the results depend on the processing

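Under 58 alternative settings, 1235 values of the 5 genes were recomputed: 3 called values changed sign, 20 lost and 20 gained a call, and 117 uncalled values changed sign. The reversals were clt in phenobarbital larvae, at 0.14 as deposited and 0.0754 centred on the control genes, and gas in insecticides minus inducers, at -0.0598 as deposited. The cause was not tested.

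In phenobarbital larvae 3 genes were called, against 0 as deposited and 0 on the control genes. The count of 0 under DDT became 1 (gas) on all spots, 1 on the control genes and 1 with a dye term per exposure. Insecticides minus inducers gave 1, against 0 on all spots, 0 with arrays scaled to the same spread, 2 (Est-P and gas) from the first spot pair, and 0 (without phenobarbital) to 3 (without caffeine) leaving out 1 pool pair. The count of 0 in phenobarbital adult males became 1 (Est-P) scaled and 1 (Est-P) from the second spot pair. It became 2 (Est-P and Est-Q) with a dye term per exposure, and 1 (gas) with all 36 arrays or with array 4 kept as phenobarbital. On array 4 the deposited value of gas was 1.09, against 1.24 on DDT array 2 and -0.48 on phenobarbital array 2, of the same dye. For Est-P it was -2.58, against -2.03 and 1.50, for Est-Q -1.33, against -0.40 and 0.63, and for clt -1.72, against -1.53 and -0.62. For Jhedup it was -0.36, against 0.20 and -0.01. Which label of array 4 is right was not tested. The stage contrast of phenobarbital, 0 before, gave 1 (gas) on all spots and 2 (Est-P and gas) with a dye term per exposure. Dicyclanil gave 1 (Jhedup) scaled; nitenpyram gave 1 (Est-P) with a dye term per exposure and 0 to 1 leaving out 1 array. The spot pairs and the dye term per exposure were added after seeing the data.

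With array number as a replicate block in place of the dye term, clt in phenobarbital larvae stayed at -0.64 and lost its call (limma adjusted p = 0.0541). In the residuals of the main fit, which holds the dye term, arrays of the same number correlated at a mean r of -0.07. Single pairs of such arrays lay between -0.61 and 0.55, and arrays of other numbers had a mean r of 0.02. The array number also fixes the dye of the exposed pool, so these values cannot show whether arrays of the same number shared a batch. Scaling to the same spread turned 27 higher and 2 lower calls over all genes in phenobarbital adult males into 29 and 7. With no intensities, signal over background is unknown.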
